A study of Mus musculus with 7 samples.

Results

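The skeletal muscle genes described here encode parts of the sarcomere of striated muscle and its fast and slow fibre type isoforms, as measured by RNA sequencing of mouse prostate tissue. They were chosen by symbol: Acta1, Ckm, Mylpf, Tnnt3, Tnni2, Tnnc2, Myh1, Myh2, Myh4 and Myh7. All 10 were found among the 16019 genes of each library. The samples were prostates of mice with experimental autoimmune prostatitis (EAP), an inflammation of the gland that is set off by immunisation and that both groups carried. The treated group had 4 samples, from animals that received daily intraperitoneal LIT-927, which neutralises the chemokine CXCL12, at 25 mg/kg for 14 days. The group called vehicle here had 3 samples, from animals that received methyl-β-cyclodextrin for 14 days. The labels give neither the strain nor the age of the mice, and they do not say whether each library came from its own animal, so each p-value below reflects library-to-library spread that may be technical.

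Striated muscle contracts when myosin heads of the thick filament pull on actin of the thin filament, and the troponin complex on the thin filament opens this interaction when calcium binds. Most of these proteins exist in a fast and a slow form from separate genes, and adult muscle fibres are typed by their myosin heavy chain: Myh7 in slow type I fibres, Myh2 in type IIa, Myh1 in type IIx and Myh4 in type IIb. The prostate's own contractile cells are smooth muscle, which uses other actin and myosin genes and has no sarcomeres, while striated muscle of the urethral sphincter and the pelvic floor lies beside the gland.

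The values were FPKM, which are fragments scaled to gene length and library size, as deposited, and rested on 32041679 to 35256113 whole fragments per library. The tissue pieces differed in make-up within both groups. Summed over a list of 7 seminal vesicle genes, the FPKM of a library ran between 125620 and 286272 in the LIT-927 group and between 44418 and 540542 in the vehicle group. Prostate luminal markers were present in every library, at 5910 to 166203 summed FPKM in LIT-927 libraries and 9755 to 74350 with vehicle. Urothelial markers were high in 1 library of each group, LIT-927 replicate 3 (344 summed FPKM) and vehicle replicate 3 (295), and lay between 39.9 and 67.9 in the remaining libraries. In such bulk tissue, fewer cells of a type and less RNA per cell cannot be told apart.

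The 10 genes fell into 3 patterns. Acta1, Ckm and Tnnc2 were present in every library, with a lowest value of 3.50 FPKM, that of Ckm in LIT-927 replicate 3. The fast fibre genes Mylpf, Tnnt3, Tnni2, Myh1, Myh2 and Myh4 were high in vehicle replicate 3 and at or below 1.86 FPKM in each of the other 6 libraries. Myh7 was close to 0 throughout.

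Promoter sequences of the 4 most abundant members that had an entry in the RefSeq table (build GRCm38.p6) are given here because 3 of them belong to the genes found in every library and 1, Mylpf, to the genes found in vehicle replicate 3. Each runs 5′ to 3′ on the strand of the gene, over 250 bases before and 50 bases from the annotated start: Acta1 on the minus strand at chr8:123894726-123895025, Tnnc2 on the minus strand at chr2:164779685-164779984, Ckm on the plus strand at chr7:19410844-19411143 and Mylpf on the plus strand at chr7:127211358-127211657. The starts are those of the RefSeq entries. The Ckm and Mylpf windows lie inside the gene spans given below, which come from GENCODE and begin further upstream. Capitals mark E-boxes (CANNTG, the motif of myogenic basic helix-loop-helix factors) and the CArG box, the motif of serum response factor, both searched on both strands.
Acta1: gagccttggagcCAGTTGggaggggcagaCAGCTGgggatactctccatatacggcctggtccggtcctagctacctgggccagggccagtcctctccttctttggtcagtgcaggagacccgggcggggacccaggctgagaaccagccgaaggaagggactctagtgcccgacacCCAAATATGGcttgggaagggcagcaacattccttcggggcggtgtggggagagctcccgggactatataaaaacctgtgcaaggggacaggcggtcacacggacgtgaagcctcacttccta
Tnnc2: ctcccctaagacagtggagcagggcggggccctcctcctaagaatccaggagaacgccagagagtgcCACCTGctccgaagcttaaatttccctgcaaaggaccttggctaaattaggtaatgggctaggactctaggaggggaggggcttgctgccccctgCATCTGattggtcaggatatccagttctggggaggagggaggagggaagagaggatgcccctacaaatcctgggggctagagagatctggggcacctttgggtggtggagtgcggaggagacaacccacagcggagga
Ckm: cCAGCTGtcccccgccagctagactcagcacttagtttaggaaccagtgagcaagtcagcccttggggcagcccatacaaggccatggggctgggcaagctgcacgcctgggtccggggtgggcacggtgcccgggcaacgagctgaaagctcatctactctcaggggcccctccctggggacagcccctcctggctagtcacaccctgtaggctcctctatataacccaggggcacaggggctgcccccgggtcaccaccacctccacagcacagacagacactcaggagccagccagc
Mylpf: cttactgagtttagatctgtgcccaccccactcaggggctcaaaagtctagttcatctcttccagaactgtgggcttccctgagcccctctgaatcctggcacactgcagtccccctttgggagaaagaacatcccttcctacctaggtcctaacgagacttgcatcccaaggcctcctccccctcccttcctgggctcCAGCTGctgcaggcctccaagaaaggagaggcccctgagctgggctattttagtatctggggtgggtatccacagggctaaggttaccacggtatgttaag
The Acta1 window held 2 E-boxes and a CArG box at bases -73 to -64 from the start. The Tnnc2 window held 2 E-boxes, and the Ckm and Mylpf windows 1 each, with no CArG box. Of all 32851 windows of 300 bases in the table, 72.3% held an E-box and 1.63% a CArG box. Among the other members with a window, Myh4 also held a CArG box, and the MEF2 box, found in 3.19% of all windows, was in the Myh1 and Myh4 windows. Of the 10 members, 8 had a window, and Tnnt3 and Tnni2 had none. These matches describe letters in the windows and not binding.

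Acta1 encodes the α-actin of the skeletal muscle thin filament (mm10 chromosome 8, 123891769 to 123894751, minus strand). It was at 309, 225, 89.1 and 557 FPKM in LIT-927 replicates 1 to 4, against 863, 576 and 286 FPKM in vehicle replicates 1, 3 and 4. The highest library was vehicle replicate 1 and the lowest LIT-927 replicate 3, and the groups overlapped. Ckm, the creatine kinase of muscle, which regenerates ATP during contraction (chromosome 7, 19404776 to 19422841, plus strand), was at 51.9, 40.3, 3.50 and 51.4 FPKM with LIT-927, against 66.1, 206.7 and 22.9 FPKM with vehicle. Tnnc2, the fast troponin C that binds calcium (chromosome 2, 164777161 to 164779967, minus strand), was at 82.7, 65.4, 6.79 and 92.2 FPKM with LIT-927, against 110.1, 159 and 29.9 FPKM with vehicle. For both of these genes vehicle replicate 3 was the highest library and LIT-927 replicate 3 the lowest, with vehicle replicate 4 second lowest. An exon of Tnnc2 overlaps Ube2c on the other strand and one of Ckm overlaps A930016O22Rik, and the strand setting of the counting is not given in the sources used here, so reads of such partners may not be told apart. Ube2c was at 1.24 to 2.89 FPKM over the 7 libraries.

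**Figure D1:**
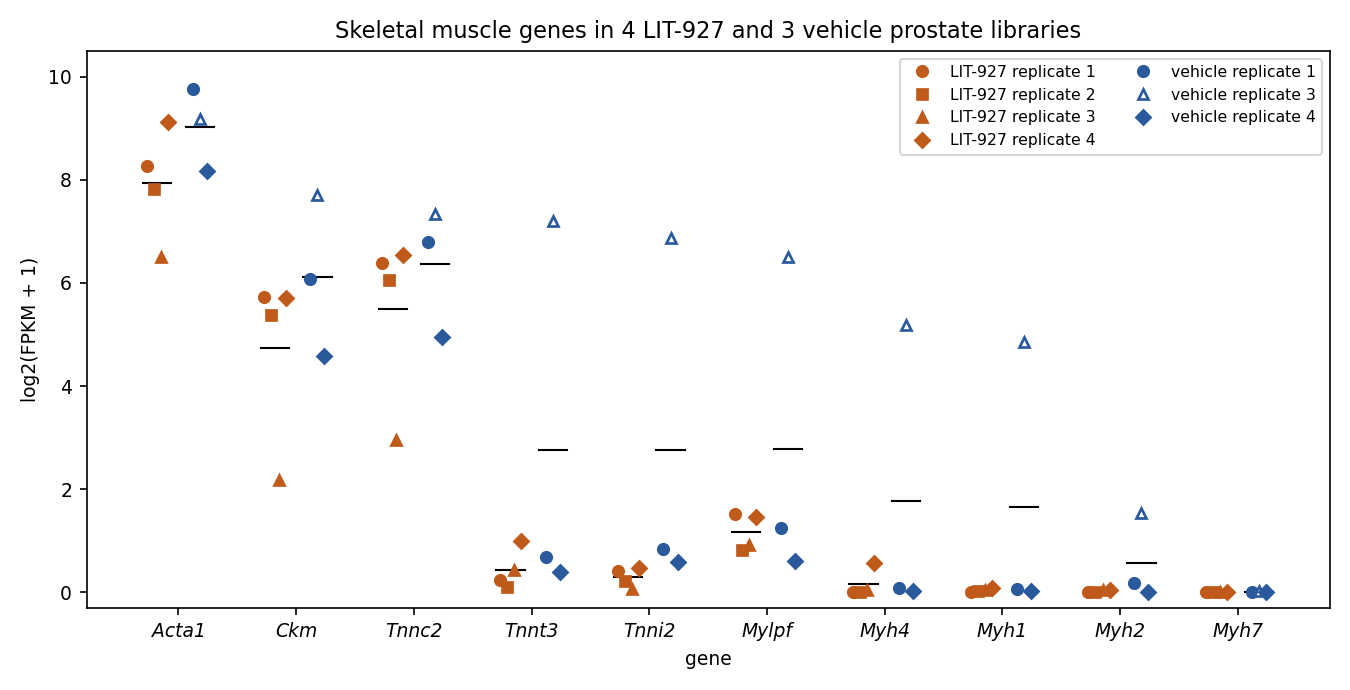
Level of each skeletal muscle gene as log2(FPKM + 1) in the 4 LIT-927 libraries (orange, left of each pair) and the 3 vehicle libraries (blue, right), with a bar at each group mean. Acta1, Ckm and Tnnc2 were present in all 7 libraries, while Tnnt3, Tnni2, Mylpf, Myh4, Myh1 and Myh2 stood out in vehicle replicate 3 (open triangle) and Myh7 stayed near 0.

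Outside vehicle replicate 3 the levels of Acta1, Ckm and Tnnc2 went with those of smooth muscle genes. Acta2, the smooth muscle α-actin, was at 952, 631, 129 and 1093 FPKM with LIT-927, against 1843, 671 and 500.5 FPKM with vehicle, so that LIT-927 replicate 3 was lowest here too and vehicle replicate 1 highest. Genes at large shared some of this order. Their median-of-ratios scaling factors were 1.14, 1.02, 0.81 and 1.16 with LIT-927, against 1.31, 1.08 and 0.66 with vehicle. The part of this common scale in the likeness to smooth muscle genes was not tested. As a percentage of the Acta2 level in the same library, Ckm came to 5.45, 6.40, 2.71 and 4.71% with LIT-927, against 3.59, 30.8 and 4.59% with vehicle. Tnnc2 came to 8.68, 10.4, 5.25 and 8.44% with LIT-927, against 5.97, 23.7 and 5.98% with vehicle. Vehicle replicate 3 was thus 4.81 times the highest other library in the Ckm percentage and 2.29 times in that of Tnnc2. Acta1 differed less: its percentage was 32.4, 35.6, 68.9 and 51.0% with LIT-927, against 46.9, 85.8 and 57.2% with vehicle, where vehicle replicate 3 was 1.24 times the highest other library. With Myh11, the smooth muscle myosin heavy chain, in place of Acta2, vehicle replicate 3 was 4.93 times the highest other library for Ckm, 2.35 times for Tnnc2 and 1.11 times for Acta1. Whether smooth muscle cells were the source of these transcripts was not tested.

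**Figure D2:**
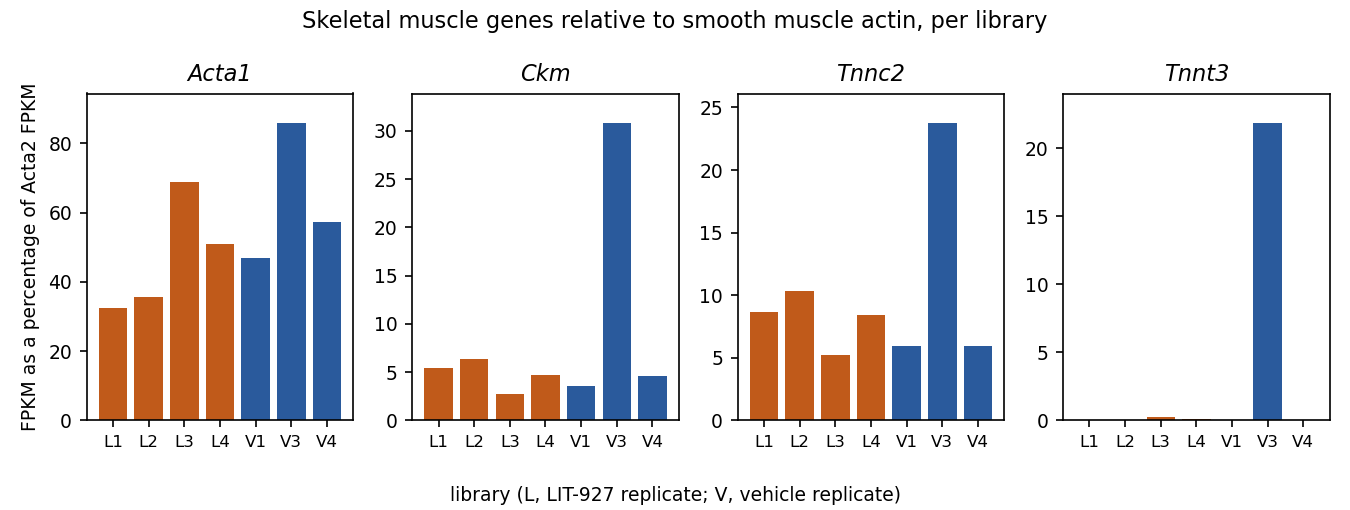
FPKM of 4 skeletal muscle genes as a percentage of the FPKM of the smooth muscle actin gene Acta2 in the same library, with LIT-927 libraries in orange and vehicle libraries in blue. Vehicle replicate 3 (V3) exceeded the next library 4.81 times for Ckm, 2.29 times for Tnnc2 and 1.24 times for Acta1, whereas Tnnt3 reached 21.8% in that library and at most 0.268% in any other.

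The fast troponin and light chain genes were close to absent from 6 libraries and abundant in vehicle replicate 3. Tnnt3, the fast troponin T that anchors the complex to tropomyosin (chromosome 7, 142498836 to 142516009, plus strand), was at 0.183, 0.0785, 0.346 and 0.981 FPKM with LIT-927, against 0.609, 147 and 0.315 FPKM with vehicle. Tnni2, the fast troponin I that blocks the actin-myosin interaction at rest (chromosome 7, 142441808 to 142444410, plus strand), was at 0.338, 0.169, 0.0430 and 0.396 FPKM with LIT-927, against 0.779, 117 and 0.509 FPKM with vehicle. Mylpf, the fast regulatory light chain of myosin (chromosome 7, 127208890 to 127214298, plus strand), was at 1.86, 0.758, 0.887 and 1.74 FPKM with LIT-927, against 1.36, 89.3 and 0.526 FPKM with vehicle. Vehicle replicate 3 was 149 times the highest other library for Tnnt3, 149.6 times for Tnni2 and 48.1 times for Mylpf. Tnni2 was the only one of the 10 members whose groups did not overlap, with every LIT-927 library below every vehicle library, as in 2.12% of all genes. Outside vehicle replicate 3 this rested on few fragments, 8, 4, 1 and 10 with LIT-927 against 19 and 13 with vehicle. No member had every LIT-927 library above every vehicle library, as in 1.08% of all genes. On the chromosome, Tnni2 has Syt8, a synaptotagmin gene, on one side, at 0.0314 to 0.224 FPKM in LIT-927 libraries and at 0.0305, 0.941 and 0.0388 FPKM with vehicle, again highest in vehicle replicate 3. Between Tnni2 and Tnnt3 lies Lsp1, a gene expressed in leukocytes, which was at 2.23 to 7.72 FPKM in LIT-927 libraries and at 18.7, 11.9 and 7.22 FPKM with vehicle.

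The fast myosin heavy chains lie next to each other on chromosome 11, with Myh2 at 67171027 to 67197517, Myh1 at 67200052 to 67224575 and Myh4 at 67238029 to 67260446, all on the plus strand. Myh4, the type IIb chain, was at 0, 0.00507, 0.0310 and 0.480 FPKM with LIT-927, against 0.0639, 35.1 and 0.0188 FPKM with vehicle. Myh1, the type IIx chain, was at 0, 0.0152, 0.0310 and 0.0570 FPKM with LIT-927, against 0.0393, 27.9 and 0.0235 FPKM with vehicle. Myh2, the type IIa chain, was at 0, 0.00503, 0.0307 and 0.0283 FPKM with LIT-927, against 0.127, 1.91 and 0.00932 FPKM with vehicle. All 3 were highest in vehicle replicate 3, and the groups overlapped. In whole fragments, the 6 fast members together held 64, 32, 55 and 218 in LIT-927 replicates 1 to 4, against 127, 24387 and 52 in vehicle replicates 1, 3 and 4. The fragments of vehicle replicate 3 made up 0.0722% of that library (exact Clopper-Pearson 95% interval 0.0713 to 0.0731%, counting error only). In LIT-927 replicate 1 the 3 myosin genes had 0 fragments, where 3 fragments would have given 0.0151 to 0.0152 FPKM.

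Myh7, the slow type I chain that heart ventricles also use (chromosome 14, 54970684 to 54994626, minus strand), was listed at 0 in LIT-927 replicates 1, 2 and 4 and at 0.00973 FPKM in LIT-927 replicate 3. With vehicle it was at 0.00464, 0.0231 and 0 FPKM. These values rest on 2 fragments with LIT-927 and 6 with vehicle in all, so a difference was not detectable at this depth. Where a library had 0 fragments of Myh7, 3 fragments would have given 0.0133 to 0.0143 FPKM. The myosin genes are similar to each other: of all windows of 100 bases in the longest annotated transcript, 9.73% in Myh1, 9.17% in Myh2, 3.85% in Myh4 and 11.2% in Myh7 (there with Myh6) occur letter for letter in another gene. How reads from such stretches were counted is not given in the sources used here, so the split of fragments between these genes is uncertain. The other 6 members had no such window. Exons of Myh1, Myh2 and Myh7 also overlap genes on the other strand: Myhas for Myh1, 9430073C21Rik for Myh2, and Gm29015, Gm31251 and Mhrt for Myh7. The limit given above for Tnnc2 and Ckm, that the strand setting is not known, holds for Myh1, Myh2 and Myh7 too. It covers the 5711 fragments of Myh1 and the 394 of Myh2 in vehicle replicate 3.

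The make-up of the 4 adult myosin heavy chains could be given for the 2 libraries in which they summed to at least 100 fragments. In LIT-927 replicate 4, with 119 fragments, Myh4 made up 84.9% of their summed FPKM, Myh1 10.1% and Myh2 5.01%, and Myh7 had 0 fragments, where the exact Clopper-Pearson 95% interval allows a share of up to 3.05%. In vehicle replicate 3, with 13286 fragments, Myh4 made up 54.0%, Myh1 43.0%, Myh2 2.94% and Myh7 0.0355%. By fragments, the share of Myh4 was 84.9% (exact Clopper-Pearson 95% interval 77.2 to 90.8%) in LIT-927 replicate 4 and 54.0% (53.2 to 54.9%) in vehicle replicate 3. Myh1 took 10.1% (5.32 to 17.0%) in LIT-927 replicate 4 and 43.0% (42.1 to 43.8%) in vehicle replicate 3. The intervals of the 2 libraries do not overlap for either gene, but they cover counting error only and each stands for 1 tissue piece. LIT-927 replicate 4 passed the limit only through Myh4, with 101 of its 119 fragments, so its shares are partly set by that limit. No difference in fibre make-up is read from the 2 libraries. Vehicle replicate 1, below the limit at 48 fragments, held 26 of Myh2, 13 of Myh4, 8 of Myh1 and 1 of Myh7. Counting Myh8, the perinatal chain, as well lowered the Myh4 share to 81.0% in LIT-927 replicate 4 and to 51.6% in vehicle replicate 3.

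Fast and slow partners showed which form each library held. For troponin T, the fast form Tnnt3 made up 4.34, 2.63, 12.7 and 13.9% of its summed FPKM with slow Tnnt1 in the LIT-927 libraries, against 4.85, 95.3 and 18.7% in vehicle replicates 1, 3 and 4. Tnnt1 itself was at 4.04, 2.91, 2.39 and 6.09 FPKM with LIT-927, against 11.9, 7.31 and 1.37 FPKM with vehicle, and so was not particular to vehicle replicate 3. For the calcium pump that refills the sarcoplasmic reticulum, fast Atp2a1 made up at most 0.317% of the pair with Atp2a2 in every library but vehicle replicate 3, where it made up 42.6%. Atp2a2 also serves smooth muscle and other cells. Troponin C was fast in every library, with Tnnc2 at 99.4% or more of its summed FPKM with Tnnc1. Calsequestrin, which stores calcium, had 47.3, 48.4 and 24.1% of the fast form Casq1 in LIT-927 replicates 1, 2 and 4, against 15.8, 62.8 and 15.3% in vehicle replicates 1, 3 and 4, and LIT-927 replicate 3 was below the 1 FPKM that a pair had to reach. In vehicle replicate 3, the fast essential light chain Myl1 (30.8 FPKM) made up 69.1% of its sum with Myl3 (13.8 FPKM), a light chain of slow fibres and heart that was at 0 to 0.0316 FPKM elsewhere. Myl3 was singled out after its values were seen.

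**Figure D3:**
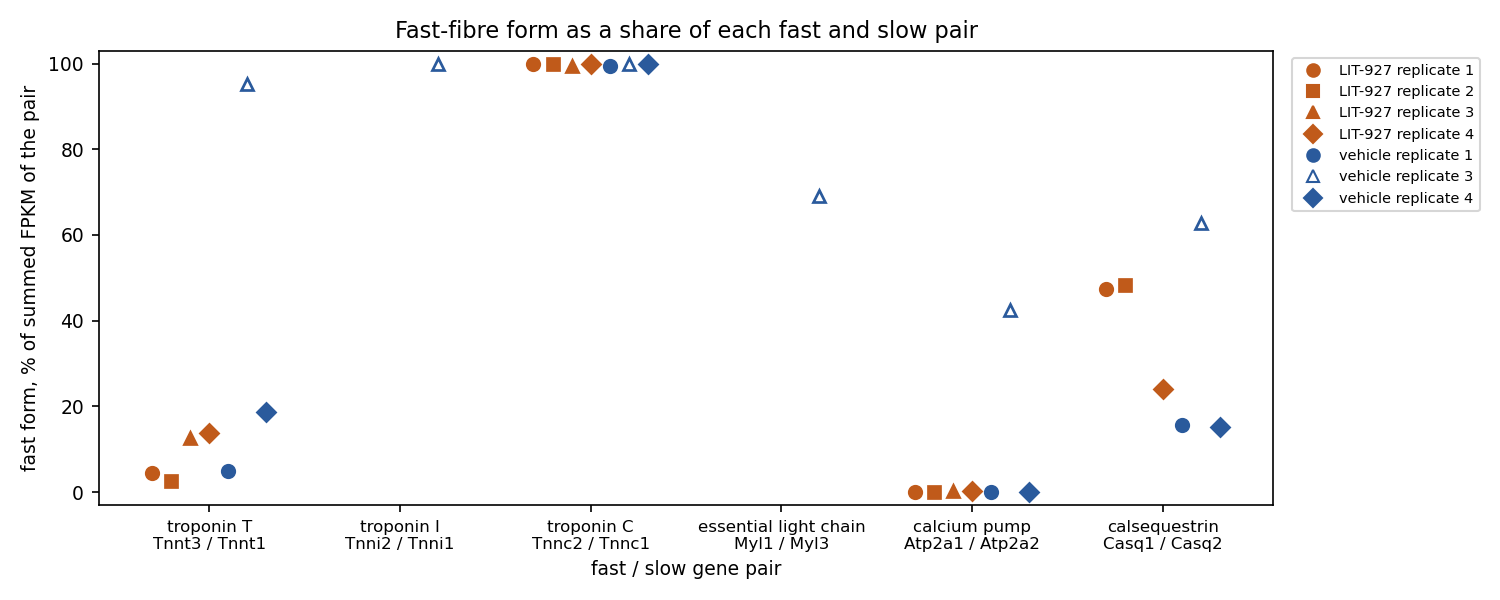
Fast form as a percentage of the summed FPKM of each fast and slow gene pair, drawn for each library in which the pair reached 1 FPKM (LIT-927 orange, vehicle blue, vehicle replicate 3 as an open triangle). In vehicle replicate 3 troponin T was 95.3% fast, against at most 18.7% in the other libraries, and the calcium pump 42.6%, against at most 0.317%, while troponin C was at 99.4% or more in every library.

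The comparison of LIT-927 with vehicle gave a lower mean log2(FPKM + 1) for all 10 members, against 44.5% of all genes. None passed the test (limma, adjusted p = 0.998 for each), and of all 16019 genes 0% passed in either direction, with 3.68% at an unadjusted p under 0.05. The median difference over the 10 members was -1.49 on the log2(FPKM + 1) scale, beside 0.02 over all genes. Without vehicle replicate 3 the median was -0.08 (0.06 over all genes), and 7 of the 10 means were lower, against 38.1% of all genes. Several other lists also had lower LIT-927 means, while all 5 vas deferens and epididymis genes were higher. The median of that list was 0.92, and 0.21 without vehicle replicate 3. In these lists 0 genes passed the test (limma). Of 7 motor and autonomic nerve genes 7 were lower, with a median difference of -1.30 that was -0.46 without vehicle replicate 1 and -1.11 without vehicle replicate 3. Of 7 prostate luminal genes 7 were lower (median -1.65, and -0.59 without vehicle replicate 3), as were 5 of 7 seminal vesicle genes (median -2.37, and -1.47 without it) and 4 of 5 tendon genes (median -0.20, and -0.11 without it). Other single libraries mattered too. The prostate luminal median was -0.15 without LIT-927 replicate 1. The seminal vesicle median was -4.80 without vehicle replicate 1 and -0.84 without vehicle replicate 4. The tendon median was 0.004 without vehicle replicate 1. The difference of Tnnt3 was -2.32 (SE 1.52; 95% interval -5.86 to 1.22) with all libraries and -0.10 (SE 0.25) without vehicle replicate 3. That of Tnni2 was -2.47 (SE 1.40) and then -0.42 (SE 0.14), with the only unadjusted p under 0.05 among the 10 members in the fit without vehicle replicate 3, where 3.68% of all genes had one. By limma this p was 0.0237 before adjustment and 0.999 after it, and it rested on 1 to 19 fragments of Tnni2 per library. Mylpf turned positive, at -1.61 (SE 1.29) with all libraries and 0.25 (SE 0.31) without that one, as did Myh4, at -1.61 (SE 1.16) and 0.10 (SE 0.17). Myh1 was at -1.61 (SE 1.09) and then -0.01 (SE 0.04), and Myh2 at -0.55 (SE 0.33) and then -0.07 (SE 0.05). The added 1 FPKM holds the differences of such low genes near 0: with 0.1 FPKM added in its place Myh1 was at -2.66 and Myh2 at -1.68 over all libraries, and by voom on fragments at -4.14 and -3.57. In the 6 libraries without vehicle replicate 3, where Myh1 and Myh2 were at most 0.127 FPKM, the log2(FPKM + 1) scale could show little difference.

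The 3 genes found in every library depended less on vehicle replicate 3. Acta1 averaged 295 ± 197 FPKM with LIT-927 (SD, n = 4) and 575 ± 289 FPKM with vehicle (SD, n = 3), a difference of -1.10 (SE 0.66; 95% interval -2.63 to 0.42), and -1.03 (SE 0.81) without vehicle replicate 3. Ckm averaged 36.8 ± 22.8 FPKM with LIT-927 (SD, n = 4) and 98.6 ± 96.1 FPKM with vehicle (SD, n = 3), a difference of -1.37 (SE 1.04) that was -0.58 (SE 1.09) without that library. Tnnc2 averaged 61.8 ± 38.3 FPKM in LIT-927 libraries and 99.8 ± 65.3 FPKM with vehicle (SD, n = 4 and 3), a difference of -0.87 (SE 0.96), or -0.39 (SE 1.10) without it. LIT-927 replicate 3, the lowest library for these genes, mattered as well: without it the differences were -0.63, -0.51 and -0.03 for Acta1, Ckm and Tnnc2. Smooth muscle markers went the same way, with 12 of 12 lower and a median difference of -0.70, which was -0.14 once vehicle replicate 1 was left out and -0.006 once LIT-927 replicate 3 was. Their summed levels were 897 to 6140 FPKM in LIT-927 libraries and 3017 to 10683 FPKM with vehicle. Their part in the differences of Acta1, Ckm and Tnnc2 was not tested.

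**Figure D4:**
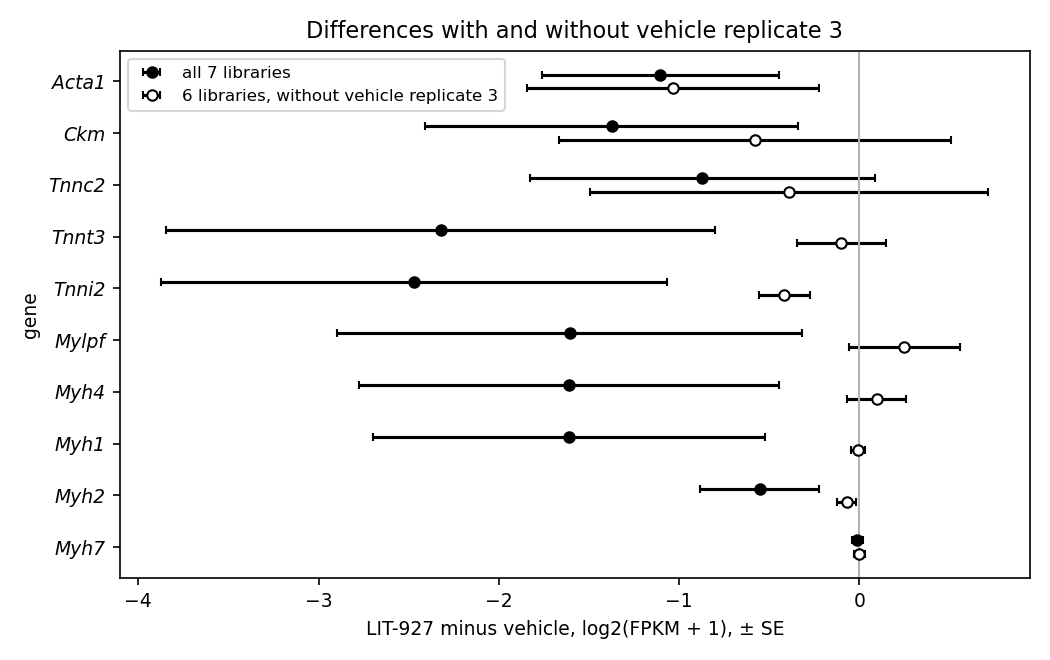
Difference in log2(FPKM + 1), LIT-927 minus vehicle, for each skeletal muscle gene, with its standard error, from all 7 libraries (filled) and without vehicle replicate 3 (open). The differences of Tnnt3, Tnni2, Mylpf, Myh4, Myh1 and Myh2 shrank to between -0.42 and 0.25 without that library, while Acta1 stayed at -1.03. Ckm went from -1.37 to -0.58 and Tnnc2 from -0.87 to -0.39.

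Other genes of striated muscle were read from lists arranged by role, of which 99 genes that are not among the 10 members had values. Of these, 93 had a lower LIT-927 mean with a median difference of -0.44, 0 passed the test in either direction (limma), and the median without vehicle replicate 3 was -0.01. Vehicle replicate 3 was the highest library for 68 of the 99, against 10.3% of all genes. It held at least 1 FPKM and at least 10 times the highest other library for 34 of the 99, against 0.456% of all genes. These counts are descriptions, since the library was singled out after its values were seen.

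By role, the fast fibre list, which includes 7 of the members, had all 14 genes highest in vehicle replicate 3, and 12 were at least 10 times any other library there. The slow fibre list had 3 of 10 highest there, and 2 were at least 10 times any other library. These were Myl3, at 13.8 FPKM against at most 0.0316 FPKM elsewhere, and Myoz2, at 2.13 against at most 0.0864 FPKM. The most abundant genes of the slow list were shared with other tissue. Tpm3, a tropomyosin that many cells use, was at 5.13 to 11.01 FPKM in LIT-927 libraries and 5.62 to 8.45 FPKM with vehicle. Casq2, the slow calsequestrin, was at 0.547 to 8.29 and 3.18 to 16.1 FPKM. In the Z-disc list, whose proteins anchor the thin filaments, 12 of 14 genes were highest in vehicle replicate 3 and 9 were at least 10 times any other library. Tcap, which links titin at the Z-disc, was at 37.1 FPKM in vehicle replicate 3 and at most 0.258 FPKM elsewhere, and Actn3, the α-actinin of fast fibres, at 17.6 and at most 1.21 FPKM. Smpx, by contrast, was at 9.47 to 23.9 FPKM in LIT-927 libraries and 8.73 to 30.3 FPKM with vehicle, and Nexn, an actin-binding protein, at 2.10 to 5.33 and 2.60 to 8.58 FPKM.

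Genes of energy supply were highest in vehicle replicate 3 in 14 of 16 cases, and 7 were at least 10 times any other library. Mb, the oxygen store myoglobin, was at 126 FPKM there and at most 3.22 FPKM elsewhere. Pygm, the muscle glycogen phosphorylase, was at 0.825 to 7.33 FPKM with LIT-927, against 12.01, 42.5 and 3.15 FPKM in vehicle replicates 1, 3 and 4. Pfkm, the muscle phosphofructokinase, was at 7.24 to 13.6 FPKM with LIT-927, against 16.2, 29.8 and 6.44 FPKM with vehicle. In excitation-contraction coupling, which turns the nerve signal into calcium release, 16 of 19 were highest in that library and 6 at least 10 times any other. Atp2a1 was at 74.9 FPKM there and at most 0.467 FPKM elsewhere. Jph2, which ties the surface membrane to the calcium store, was at 3.08 to 38.9 FPKM with LIT-927, against 51.0, 22.6 and 17.3 FPKM with vehicle, and so was not highest in vehicle replicate 3.

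In the thin filament list 6 of 11 genes were highest in vehicle replicate 3. Its tropomyosins Tpm1 and Tpm2, which smooth muscle also uses, were not: Tpm2 was at 547, 362, 89.0 and 672 FPKM with LIT-927, against 1036, 448 and 328 FPKM with vehicle. Tmod4, a tropomodulin that caps thin filaments, was at 3.13, 0.125, 0.212 and 8.01 FPKM with LIT-927, against 12.03, 5.74 and 1.52 FPKM with vehicle. Of the titin, M-band and myosin-binding list, 7 of 11 were highest in vehicle replicate 3. Mybpc2, the fast myosin-binding protein C, was at 8.09 FPKM there and at most 0.287 FPKM elsewhere, and Unc45b, a myosin chaperone, at 1.96 and at most 0.961 FPKM. Mybpc1, the slow form, was at 8.38, 7.15, 0.104 and 6.43 FPKM with LIT-927, against 6.004, 8.28 and 2.35 FPKM with vehicle, and so resembled Ckm and Tnnc2 in being low in LIT-927 replicate 3 and vehicle replicate 4. Myom1, an M-band protein, was at 6.60, 4.78, 0.587 and 6.27 FPKM with LIT-927, against 8.32, 7.05 and 2.66 FPKM with vehicle.

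Among developmental and specialised myosins, Myh8 was at 3.02 FPKM in vehicle replicate 3 and at most 0.0276 FPKM elsewhere, while Myh13, Myh15 and Myl4 stayed at or below 0.334 FPKM in every library. Among myogenic regulators and satellite cell genes, 9 of 16 had values. Myf6, the myogenic factor of mature fibres, was at 2.002 FPKM in vehicle replicate 3 and at most 0.0248 FPKM elsewhere. Chrnb1, a subunit of the acetylcholine receptor, and Mef2c, a transcription factor of muscle, were at or below 1.24 and 0.315 FPKM in every library. Of the atrophy and stress list, 3 of 8 were highest in vehicle replicate 3. Fbxo32, the ubiquitin ligase atrogin-1, was at 14.2 to 31.2 FPKM in LIT-927 libraries and 8.67 to 34.8 FPKM with vehicle, and the small heat shock genes Hspb6, Hspb7 and Cryab were each highest in vehicle replicate 1.

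**Figure D5:**
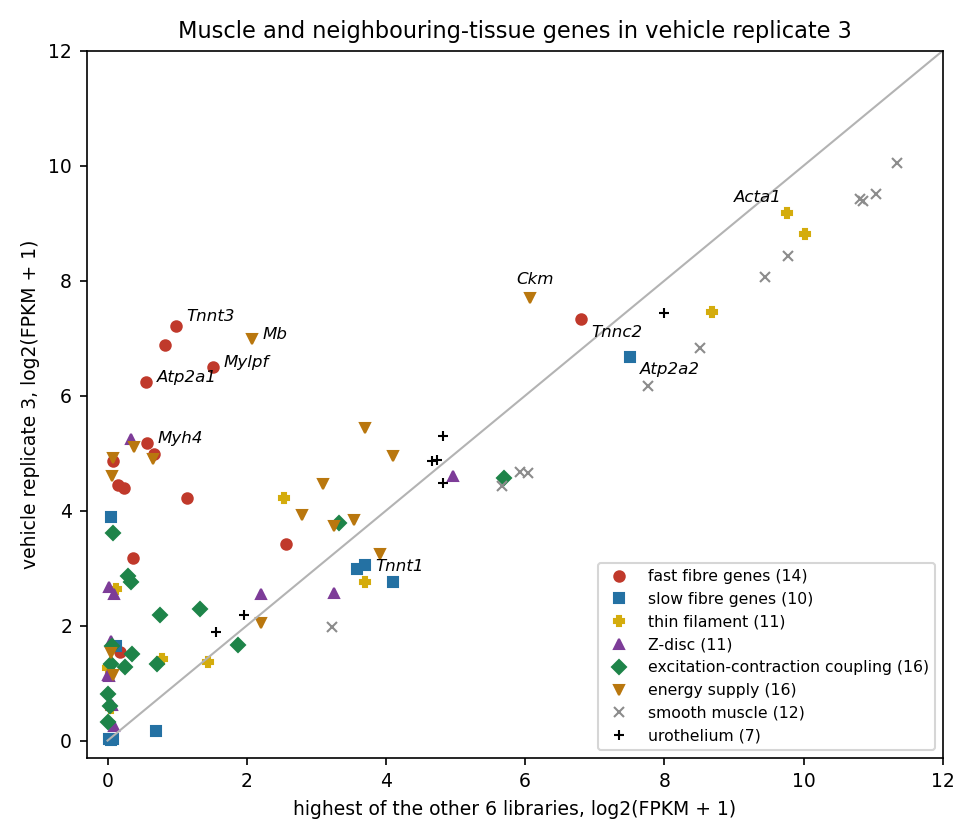
Level in vehicle replicate 3 against the highest level among the other 6 libraries, both as log2(FPKM + 1), for genes of 6 muscle lists and of smooth muscle and urothelium, each gene drawn once, with a line where both are equal. Fast fibre genes such as Tnnt3, Mylpf, Atp2a1 and Myh4 lay far above the line, Ckm and Tnnc2 nearer to it, and all 12 smooth muscle genes below it.

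Markers of other tissues were set beside vehicle replicate 3. None of the 12 smooth muscle genes, the 7 seminal vesicle genes or the 5 vas deferens and epididymis genes was highest there. Tagln and Actg2, both of smooth muscle, were at 1063 and 726 FPKM in vehicle replicate 3, within the range of the other libraries. Of 7 urothelial genes 5 were highest in it. Upk1a, a uroplakin, was at 6.64, 10.1, 253 and 9.56 FPKM with LIT-927, against 9.78, 172 and 2.64 FPKM with vehicle. The 6 fast members summed to 1.37 FPKM in LIT-927 replicate 3 and to 417.5 FPKM in vehicle replicate 3. Adipocyte markers were highest in vehicle replicate 3 in 5 of 6 cases, with summed levels of 3.23 to 17.6 FPKM with LIT-927, against 41.9, 52.6 and 5.96 FPKM in vehicle replicates 1, 3 and 4. Of 11 cardiac markers 4 had values, and Tnnt2 was at 1.84 to 7.69 FPKM in LIT-927 libraries and 7.81 to 20.5 FPKM in vehicle libraries, and Tnni3, the cardiac troponin I, at 0.153 to 1.56 and 0.221 to 0.381 FPKM. The part of these tissues in the levels of the skeletal muscle genes was not tested.

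Outside the lists, the genes most like the members were sought by Pearson's r of log2(FPKM + 1) with the mean of the 10 members over the 7 libraries, among the 12206 genes in no list that reached 1 FPKM in some library. Vehicle replicate 3 sets most of this measure. The 12 closest had r between 0.963 and 0.985, among them Tbx1, Pi15, Txlnb, Mypn, Acsm3, Krt4, Cpt1b, Cmya5, Slc16a11, Gsdmc4 and Fsd2. Some are known from striated muscle, such as Mypn, a sarcomere protein of the Z-disc, and Cpt1b, which carries fatty acids into muscle mitochondria. Mypn was at 1.12 FPKM in vehicle replicate 3 and at most 0.119 FPKM elsewhere, and Cpt1b at 2.42 and at most 0.169 FPKM. Others are not: Krt4, a keratin of stratified epithelium, was the most abundant of the 12, at 0.701 to 2.08 FPKM with LIT-927, against 1.17, 20.8 and 0.279 FPKM with vehicle. Over the 6 libraries without vehicle replicate 3, r for the 12 lay between 0.434 and 0.914.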

How the data were processed

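Total RNA of 7 mouse prostate samples, 4 with LIT-927 and 3 with vehicle, was sequenced from VAHTS Universal libraries, per the labels' protocols. HISAT2, HTSeq and fastp are the tools, and mm10 the build, named per the submitters' processing notes; versions, strand setting and annotation are not stated there. The deposited values are FPKM computed by the authors; this unit was inferred from the values, since the headers say only expression. Because FPKM divide by library size, abundant secretory transcripts lower all others. Whole fragments were recovered from the FPKM steps for 16010 of 16019 genes, within 0.01 fragments. The smallest gene length that fitted was taken, so a fragment number can be too low by a whole factor. Short fits, such as 230 bases for Lmod2 and 123 bases for Myoz3, may be of this kind. Depth was even, and low values rest on few fragments.

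The test was limma 3.58.1 (R 4.3.3), fitted to log2(FPKM + 1) of every gene in the 7 libraries without filter or covariate, allowing a mean-variance trend, with Benjamini-Hochberg adjustment over all 16019 genes at 0.05. The code was tested on simulated data. Myosin shares needed at least 100 fragments. Positions come from GENCODE M21 (mm10), which matched 15571 symbols. Named genes were the 10 members, up to 4 genes of each muscle list and up to 2 of each other list by mean FPKM, and 12 by likeness; others are named where they set a count. Results for some genes under this rule are not reported here. The members and lists were chosen with earlier results of these data known. Other settings were a filter at 1 FPKM in 3 libraries, 0.1 as pseudocount, 2 scalings, voom on recovered fragments, no trend, a replicate block, and libraries left out. Python 3.11.15, pandas 2.3.3, SciPy 1.17.1 and matplotlib 3.10.9 were used.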

Additional observations from a re-analysis of the deposited data

Results flagged for a closer look

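In the LIT-927 group of 4 libraries, 71 genes were checked for a library far from the other 3, and 9 were found. They were the members and genes taken from the lists and by likeness. A rate of about 1 in 20 would hold only for independent, normally spread values, which raw FPKM of related genes are not. The share over all genes is not given here, so the 9 are not read as an excess. LIT-927 replicate 4 stood apart for Myh4, at 0.480 FPKM against at most 0.0310 FPKM in the other 3, for Lpl at 3.67 FPKM against at most 1.32 FPKM, and for Gsdmc4 at 0.184 FPKM against at most 0.0347 FPKM. LIT-927 replicate 3 stood apart for Myh7, at 0.00973 FPKM or 2 fragments against 0 in the other 3, and for Myf6, at 0.0248 FPKM or 1 fragment against 0; with 3 libraries at 0, any value above 0 would have been found. It was also far above the others for Upk1a (253 FPKM), Sbp (114916 FPKM) and Spink1 (50277 FPKM), and it was lowest for Fsd2, listed at 0 against at least 0.0385 FPKM.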

How the results depend on the processing

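In every setting run, 0 of the members and 0 of all genes passed the threshold (limma), and 259 to 1349 genes had an unadjusted p under 0.05, as did 2 members with a replicate block, 1 member each with median-of-ratios scaling, without LIT-927 replicate 4, without vehicle replicate 3 and without both libraries of replicate 3, and 0 members in the other settings. The median difference over the members, -1.49, was between -2.56 (voom) and -1.24 (minimum of 1 FPKM, which left 4 members, all 4 lower) under other processing with all libraries. Leaving out each library in turn gave -2.28 to -0.08 and 7 to 10 lower means. Without both libraries of replicate 3 it was -0.01, with 6 lower means, and Ckm (0.28), Mylpf (0.34), Tnnc2 (0.45) and Myh4 (0.13) turned positive. Leaving out 1 library at a time gave -2.69 to 0.25 for Mylpf, -2.48 to 0.10 for Myh4 and -0.016 to 0.000156 for Myh7, in each case lowest without vehicle replicate 4 and positive without vehicle replicate 3, and -2.14 to -0.51 for Ckm and -1.57 to -0.03 for Tnnc2. The other 137 of 144 single-gene values kept their direction. Counting Myh8 moved the Myh4 share of vehicle replicate 3 to 51.6%. With a replicate block, where LIT-927 replicate 2 has no partner and does not enter the difference, the median was -1.52 and 0 genes were called. The numbers were not taken to pair the libraries: same-numbered libraries had correlated deviations of 0.57, 0.70 and -0.24, and vehicle replicate 1 correlated best with LIT-927 replicate 4 (0.64). With 1 vehicle library carrying the fast fibre genes, these data cannot separate treatment from tissue piece for them.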
